A study of Mus musculus with 9 samples.

Results

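The genes that copy DNA in S phase were examined in mouse regulatory T cells (Tregs), a CD4 T cell type that is defined by the transcription factor Foxp3 and holds other immune cells in check. The set held 46 named genes, chosen for their role in origin licensing, the replicative helicase, the polymerases and fork, nucleotide supply, repair and checkpoint signalling, G1/S control and maintenance methylation. Rows of the expression table were given gene symbols through their RefSeq accessions, and 42 of the 46 genes had a row, among 21023 named genes in all. Gins2, Pcna, Rfc5 and Fen1 were not analysed here.

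The Tregs were sorted as CD4+ GFP+ cells from Foxp3EGFP mice on a C57BL/6 background, aged 8 to 12 weeks, so that the fluorescent reporter of Foxp3 defined the sorted population in every group. Resolving lung and resolving spleen came from mice given lipopolysaccharide of Escherichia coli O55:B5 at 3 mg/kg into the trachea, which injures the lung, and control lung came from uninjured mice. Each group had 3 arrays. No uninjured spleen was analysed here, lungs were digested with enzymes while spleens were dissociated mechanically, and the sources used here give no day of harvest, mice per array or batch. The labels do not say whether each replicate was a separate animal, so that the p-values describe the spread of these samples alone, part of which may be technical.

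Replication starts at origins that the origin recognition complex, Cdc6 and Cdt1 have licensed by loading the Mcm2 to Mcm7 ring. Cdc45 and the GINS complex turn that ring into the active helicase, the polymerase alpha and primase complex lays primers, and polymerases delta and epsilon extend them. Most of these genes are transcribed under E2F factors around the G1/S boundary and are low in resting lymphocytes, so their RNA is widely used as a sign of cells that are in cycle.

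Because E2F control is the best-known shared feature of these promoters, the sequences of the measured genes were searched for E2F-type letters. RefSeq promoter windows of build GRCm38.p6, which run from 250 bases before to 50 bases after a gene's start, were available for 34 of the 42 genes, with 40 windows in all. The letters TTTCCCGC, TTTGGCGC, TTTCGCGC or TTTGCCGC, on either strand, stood in 16 of the 40 windows (40.0%), against 744 of all 32851 windows (2.26%). The letters CCAAT, on either strand, stood in 25 of the 40 windows (62.5%), against 37.4% of all windows. The letters TTTGAA, which form the core of the CHR element of late cell cycle genes, stood in 6 (15.0%), against 17.9% of all windows. In 1 of the 16 windows the E2F-type letters overlapped a CCAAT or TTTGAA match. A match is a description of the letters in the window and shows neither binding nor a cause of any difference between the groups. Among genes with a window, 9 of the 19 that passed the test in at least 1 comparison and 7 of the 15 others held E2F-type letters. The windows below are those of the 6 genes with the smallest p among genes that passed the test and held the letters, which stand in capitals, and all are written 5′ to 3′ along the gene's strand. They lie at chr4:126556730-126557029 (plus strand) for Clspn, chrX:93632106-93632405 (minus strand) for Pola1, chr11:98907901-98908200 (plus strand) for Cdc6, chr17:56304063-56304362 (plus strand) for Uhrf1, chr8:122567765-122568064 (plus strand) for Cdt1 and chr7:13278576-13278875 (plus strand) for Lig1.
Clspn: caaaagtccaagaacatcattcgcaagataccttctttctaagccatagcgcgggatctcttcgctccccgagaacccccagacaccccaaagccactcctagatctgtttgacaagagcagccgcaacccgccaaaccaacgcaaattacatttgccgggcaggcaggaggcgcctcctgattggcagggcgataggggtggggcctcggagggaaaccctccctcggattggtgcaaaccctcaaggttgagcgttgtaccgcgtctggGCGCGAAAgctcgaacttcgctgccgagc
Pola1: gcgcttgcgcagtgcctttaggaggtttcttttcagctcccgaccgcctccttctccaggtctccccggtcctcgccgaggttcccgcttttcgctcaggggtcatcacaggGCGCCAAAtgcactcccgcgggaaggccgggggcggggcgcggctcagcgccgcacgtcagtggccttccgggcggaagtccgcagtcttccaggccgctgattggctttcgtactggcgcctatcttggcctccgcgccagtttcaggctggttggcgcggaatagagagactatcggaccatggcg
Cdc6: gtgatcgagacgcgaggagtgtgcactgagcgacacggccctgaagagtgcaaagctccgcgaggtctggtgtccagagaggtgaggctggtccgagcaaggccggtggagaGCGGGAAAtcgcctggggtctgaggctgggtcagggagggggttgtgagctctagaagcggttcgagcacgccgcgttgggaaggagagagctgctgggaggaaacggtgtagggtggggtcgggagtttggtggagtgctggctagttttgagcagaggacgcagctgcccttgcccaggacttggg
Uhrf1: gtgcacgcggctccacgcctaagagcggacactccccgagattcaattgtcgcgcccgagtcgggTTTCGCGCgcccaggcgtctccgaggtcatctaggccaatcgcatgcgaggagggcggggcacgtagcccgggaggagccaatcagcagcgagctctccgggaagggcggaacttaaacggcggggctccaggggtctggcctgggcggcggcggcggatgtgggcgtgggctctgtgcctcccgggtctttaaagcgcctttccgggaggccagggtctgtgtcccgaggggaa
Cdt1: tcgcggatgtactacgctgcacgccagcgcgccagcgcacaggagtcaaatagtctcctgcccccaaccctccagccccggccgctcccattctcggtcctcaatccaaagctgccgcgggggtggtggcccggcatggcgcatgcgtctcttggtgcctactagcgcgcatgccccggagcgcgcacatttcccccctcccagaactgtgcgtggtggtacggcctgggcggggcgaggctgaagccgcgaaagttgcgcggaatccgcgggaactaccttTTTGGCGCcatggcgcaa
Lig1: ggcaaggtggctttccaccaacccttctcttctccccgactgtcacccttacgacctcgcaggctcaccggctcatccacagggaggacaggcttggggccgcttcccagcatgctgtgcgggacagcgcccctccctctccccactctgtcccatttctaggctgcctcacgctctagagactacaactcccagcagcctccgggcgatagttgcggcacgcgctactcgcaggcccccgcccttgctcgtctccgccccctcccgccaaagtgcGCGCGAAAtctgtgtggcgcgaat
The match began 138 bases before the start of Pola1 and of Cdc6 and 185 bases before the start shown for Uhrf1. It lay after the start in the other windows shown, by 21 bases in Clspn, 26 in Lig1 and 32 in Cdt1. The table lists 3 starts for Lig1 and 2 for Uhrf1, and only the window shown holds the letters in each of these genes. The window of Parpbp, which passed the test in every comparison, held none of the 4 E2F-type words. Gins1 and Ccne2 had no window in the table.

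The measured values were log2 expression values, 1 per gene and array, and a difference of 1 is a doubling. As a dim level served, in each array, the value that 95% of 915 olfactory receptor genes do not exceed, which lay between 3.32 and 3.52. Of the 42 genes, 40 lay above it in all 9 arrays. Orc1 lay above it in only 2 arrays, and Rad51ap1 in 6, so that its 3 spleen arrays were dim. The 7 measured Treg markers, Foxp3 and Cd4 among them, all lay above it in every array, with array means of 10.36 to 10.43 in resolving lung, 10.29 to 10.35 in control lung and 10.25 to 10.34 in resolving spleen. Levels are compared between arrays for the same gene and not between genes.

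Averaged over the 42 genes, the replication level was 7.07, 6.57 and 6.46 in resolving lung arrays 1, 2 and 3, 6.14, 6.23 and 6.50 in control lung and 5.79, 5.99 and 5.91 in resolving spleen. Every lung array lay above every spleen array, while control lung 3 lay above resolving lung 3, so that the lung groups overlapped. Resolving lung 1 stood apart: it had the highest value of its group for 40 of the 42 genes and the highest of all 9 arrays for 38. In control lung, array 3 was the highest for 40 genes, and in spleen, array 1 was the lowest for 27. The order of the group means was resolving lung, then control lung, then resolving spleen for 33 of the 42 genes, an order found for 19.3% of all named genes. Resolving spleen came second and control lung last for 7 genes, and control lung came ahead of both other groups for Cdt1 and Orc1.

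**Figure D1:**
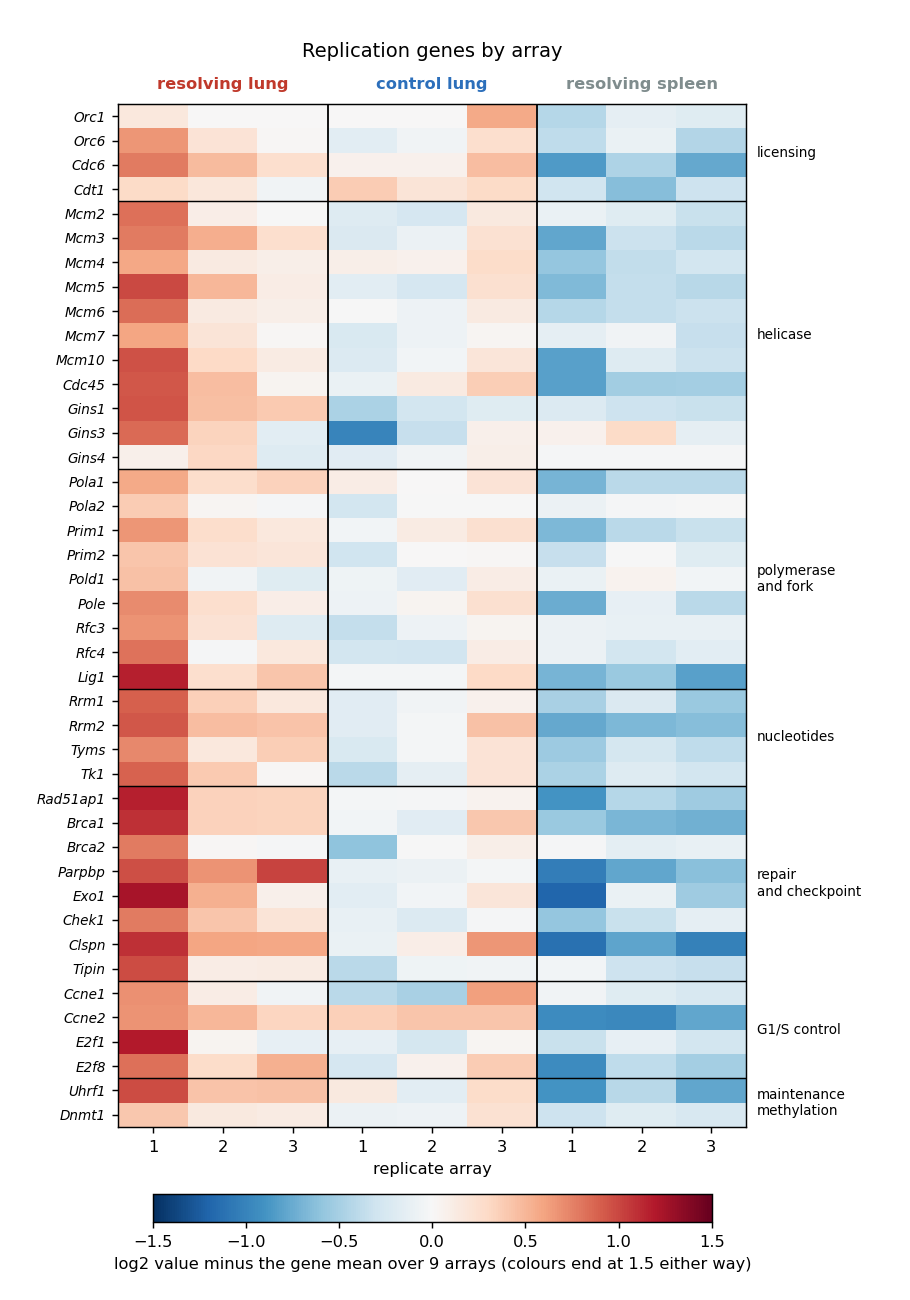
Heat map of the 42 replication genes (rows, grouped by step) in the 9 arrays (columns, grouped as resolving lung, control lung and resolving spleen). Colour gives each value minus the gene's mean over the 9 arrays, in log2 units. The column of resolving lung 1 is the highest for 38 genes, and the spleen columns are mostly below the gene means.

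The same arrays differed in markers of other cells that the sort could hold. The mean of 10 measured macrophage genes was 6.58, 4.47 and 4.46 in replicates 1, 2 and 3 of resolving lung, 4.78, 4.27 and 3.66 in control lung, and 5.21, 4.31 and 4.42 in resolving spleen. Above the dim level in all 3 arrays of the group were 6 of these 10 genes in resolving lung, 4 in control lung and 6 in resolving spleen. Adgre1, a macrophage surface marker, was at 7.36, 4.42 and 4.64 in resolving lung, 3.85, 3.47 and 3.11 in control lung and 5.98, 4.64 and 4.64 in resolving spleen. The list was not uniform: in control lung minus spleen 7 of the 10 differences were below 0 and 3 above. Among the 3, Chil3 was at 9.01, 7.51 and 6.05 in control lung and 6.15, 5.29 and 4.95 in resolving spleen. Resolving lung 1 was thus the highest array for the macrophage list as well as for the replication genes, whereas control lung 3, the highest control array for replication, was the lowest for macrophage genes. Stromal and endothelial markers (12 genes) also had their highest mean in resolving lung 1, 4.99, against 3.09 to 3.13 in the other resolving lung arrays and 2.84 to 4.50 in control lung. In spleen, 11 of these 12 genes were dim in all 3 arrays. Epithelial markers (11 genes) averaged 4.72 to 5.46 in resolving lung, 6.18 to 7.35 in control lung and 2.99 to 3.77 in resolving spleen. B cell markers (12 genes) averaged 3.98 to 4.18 in resolving lung, 4.50 to 4.65 in control lung and 4.87 to 5.97 in resolving spleen, with 7, 7 and 10 of them above the dim level in all arrays of those groups. Erythroid markers (8 genes) averaged 3.76 to 5.44 in resolving lung, 3.09 to 3.58 in control lung and 5.20 to 6.32 in resolving spleen, with 2, 1 and 5 of them above the dim level in all arrays of those groups. The CD8 T or NK cell list (9 genes) averaged 5.08 to 5.86 in resolving lung, 5.72 to 5.96 in control lung and 5.22 to 5.68 in resolving spleen. The part of such cells in the replication differences was not tested. Each array measured a bulk sample, so that fewer cycling cells and less RNA per cell cannot be told apart.

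**Figure D2:**
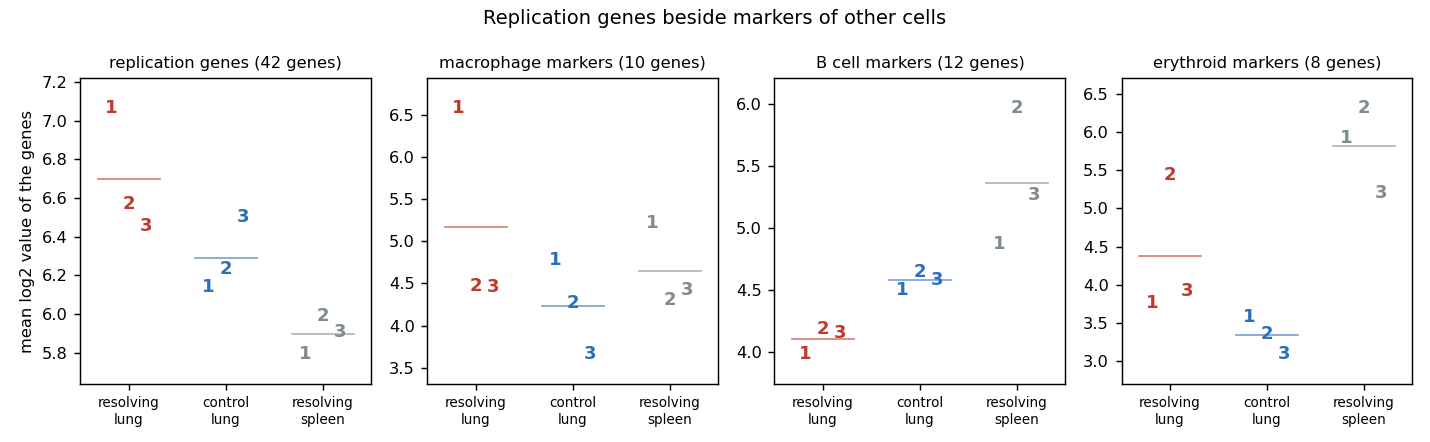
Mean log2 value of the replication genes and of the macrophage, B cell and erythroid marker lists in each array (digits are the replicate numbers, lines the group means). Resolving lung 1 is the highest array for replication (7.07) and for macrophage markers (6.58), while B cell and erythroid means are highest in spleen arrays.

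The effect of injury and its resolution within the lung was read from resolving against control lung. Parpbp, which curbs recombination at forks, and Gins1, a subunit of the GINS part of the helicase, rose in resolving lung, 1.94-fold and 1.88-fold. These were 2 of the 42 genes, against a background of 0.133% of all named genes higher at an adjusted p under 0.05 (limma with Benjamini-Hochberg adjustment over all named genes, two-sided). None was lower in limma, with 0 of 42 lower at an unadjusted p under 0.05, while 0.323% of all named genes were lower at the adjusted threshold. At the unadjusted level 19 of the 42 were higher, against 7.61% of all named genes. The difference was above 0 for 40 of the 42 genes (52.5% of all named genes), with a median of 0.43, against 0.0086 over all named genes. In 10 of the 42 genes all 3 resolving lung arrays lay above all 3 control arrays, which held for 8.79% of all named genes, and in none did all 3 lie below, which held for 7.5%.

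Neither gene passed with only the 2 lung groups in the fit, with the replicate number as a block, or with both. With only those groups, with or without the block, no named gene at all passed, so the loss was not particular to these genes. With the block alone, fewer of all named genes passed than in the main fit. Both calls and the size of the median also depended on single arrays. Without resolving lung 1 the median difference was 0.21, the differences of 38 of the 42 genes were above 0 and Gins1 passed, while Parpbp had an adjusted p of 0.0545. In resolving lung 2 and 3 alone the macrophage mean, 4.47 and 4.46, lay within the control lung range of 3.66 to 4.78. For 4 of the 10 macrophage genes, however, all 3 resolving lung arrays lay above all 3 control arrays (8.79% of all named genes), and for 0 below (7.5%). Of the 11 epithelial genes 3 were called lower in resolving lung, against 0.323% of all named genes, with a median difference of -1.73. The erythroid mean, 5.44 and 3.92 in resolving lung 2 and 3, lay above the control lung range of 3.09 to 3.58. The part of such cells in the lung difference was not tested. Without control lung 1, 2 or 3, or without spleen 2 or 3, neither gene passed, and without resolving lung 2 or spleen 1, 1 did. Over all 21023 named genes, 1 was higher without control lung 1, against 28 in the main fit.

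Resolving lung against resolving spleen compared organs within injured mice. Here 22 of the 42 genes rose in lung, against 2.64% of all named genes, and none was lower, against 2.82% (limma, with 0 lower at an unadjusted p under 0.05). At the unadjusted level 33 were higher, against 8.2% of all named genes. All 42 differences were above 0 (52.8% of all named genes), with a median of 0.79, against 0.0091 over all named genes. In 35 genes every resolving lung array lay above every spleen array, which held for 11.3% of all named genes, and in none did every array lie below, which held for 11.8%. The groups share replicate numbers, and same-numbered arrays deviated together, so the fit with the replicate number as a block is given beside it: there 15 genes passed, and Mcm4, Mcm5, Cdc45, Rrm1, Tyms, Chek1 and Dnmt1 did not. With only these 2 groups in the fit 11 genes passed, and with the block as well 2 did, Parpbp and Ccne2.

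The count also rested on single spleen arrays: 8 genes passed without spleen 1, 12 without spleen 2 and 10 without spleen 3, and 14 passed without resolving lung 2. Calls fell over all named genes too: 266 of 21023 were higher without spleen 1, against 556 in the main fit. Without resolving lung 1, 20 passed (Mcm6 did, and Cdt1, Mcm5 and Dnmt1 did not), with a median of 0.62, and the differences of 41 genes were above 0. For the B cell list all 3 resolving lung arrays lay below the spleen arrays, and for the erythroid list resolving lung 2, at 5.44, lay within the spleen range. Epithelial markers went the other way: 10 of 11 differences were above 0 and 1 below, and 4 genes passed, against 2.64% of all named genes. Of 12 stromal and endothelial genes 0 passed. For 9 of them all resolving lung arrays lay above all spleen arrays, against 11.3% of all named genes. The part of such cells was not tested.

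Uninjured lung was also set against the spleen of injured mice, a comparison in which organ and injury cannot be told apart. Cdc6, Cdt1, Pola1, Rrm2, Parpbp, Clspn, Ccne2 and Uhrf1 rose in control lung, 8 of the 42 genes against 2.67% of all named genes, and none was lower, against 3.49% (limma, with 0 lower at an unadjusted p under 0.05). At the unadjusted level 20 were higher, against 7.55% of all named genes. The difference was above 0 for 35 genes (51.0% of all named genes), with a median of 0.41, against 0.0027 over all named genes. In 23 genes all control arrays lay above all spleen arrays, which held for 11.6% of all named genes, and in none did all lie below, which held for 13.8%. For both the B cell and the erythroid list all control lung arrays lay below all spleen arrays. Epithelial markers went the other way: 10 of 11 differences were above 0 and 1 below, and 7 genes passed, against 2.67% of all named genes. Of 12 stromal and endothelial genes 0 passed. For 5 of them all control arrays lay above all spleen arrays, against 11.6% of all named genes. The part of such cells was not tested. The count was 3 without spleen 1, 4 without spleen 3, control lung 1 or control lung 3, and 15 without resolving lung 1, which enters only through the estimate of the spread. Over all 21023 named genes, 306 were higher without spleen 3 and 788 without resolving lung 1, against 561 in the main fit. Each pair of the 3 comparisons shares a group of arrays, so their counts are not independent of each other.

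**Figure D3:**
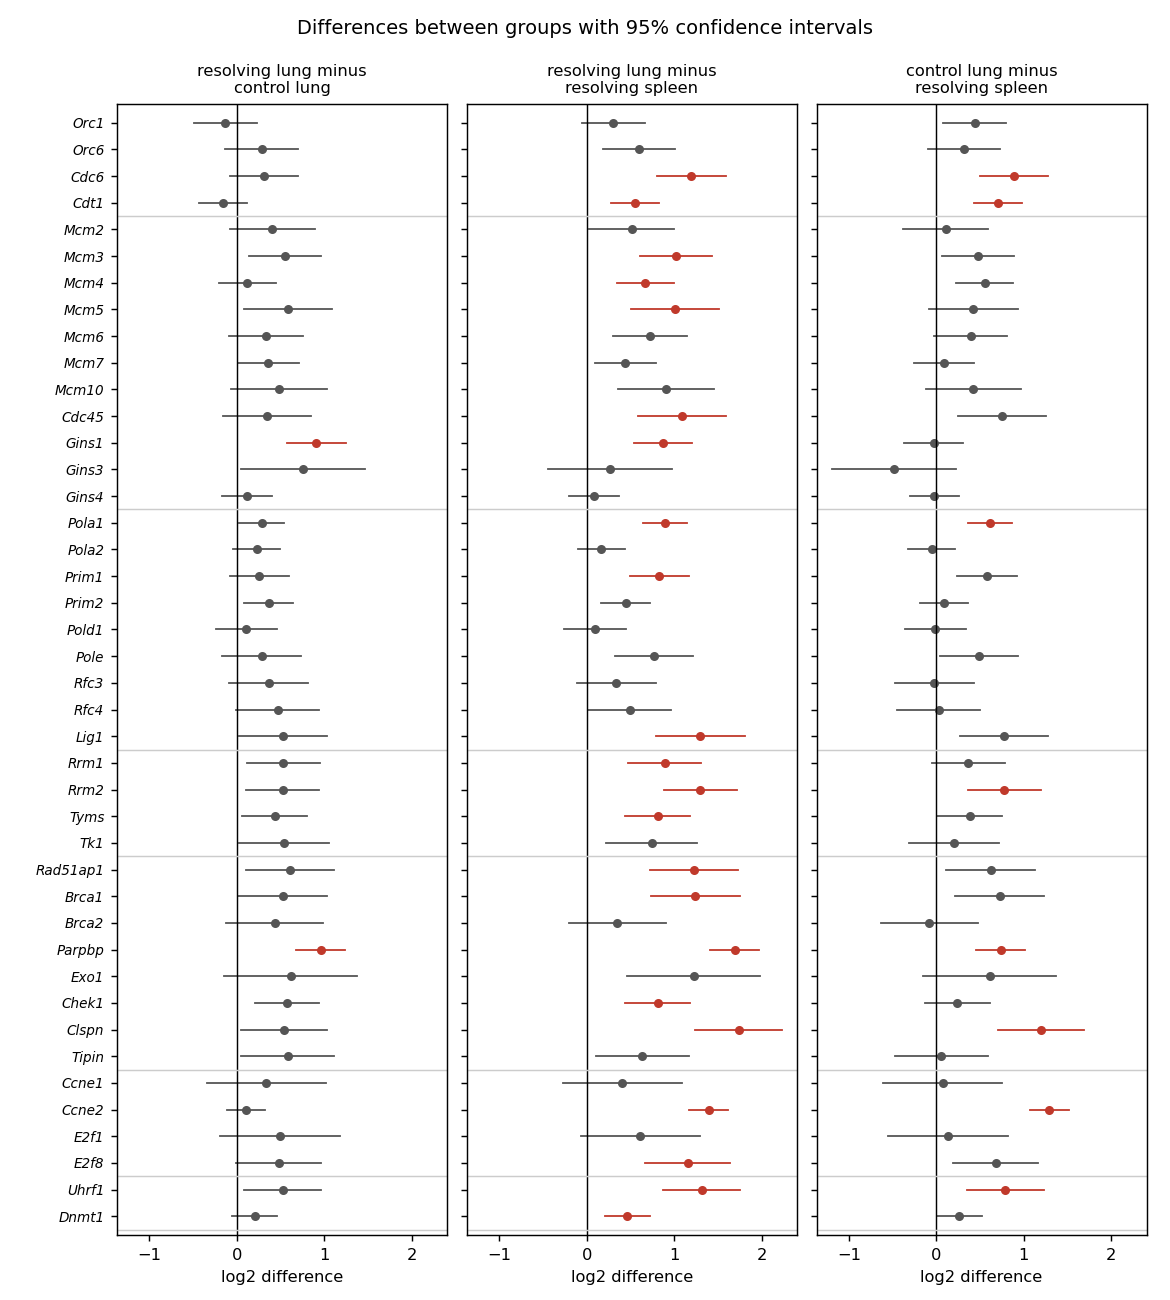
Log2 differences of the 42 replication genes, by step, in the 3 comparisons, with 95% confidence intervals from the fit and genes with an adjusted p under 0.05 in red. In resolving minus control lung 2 genes are red and 40 points lie above 0. In resolving lung minus resolving spleen 22 are red and all lie above 0, and in control lung minus resolving spleen 8 are red.

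Licensing was the step with the smallest lung difference. Its 4 genes had a median of 0.07 in resolving minus control lung, 0.58 in resolving lung minus spleen and 0.57 in control lung minus spleen, with 0, 2 and 2 genes past the test. Without resolving lung 1 the median between the lung groups was -0.04. Cdc6, which helps load the Mcm ring, was at 6.74, 6.44 and 6.21 in resolving lung, 6.02, 6.02 and 6.42 in control lung and 5.11, 5.50 and 5.19 in resolving spleen. All 6 lung arrays lay above the spleen arrays, and control lung 3 lay within the resolving lung range. The difference was 1.20 (SE 0.17, adjusted p = 0.00777) for resolving lung minus spleen, 0.89 (SE 0.17, adjusted p = 0.0207) for control lung minus spleen and 0.31 (adjusted p = 0.472) between the lung groups. Cdt1, the partner of Cdc6 in loading, which geminin inhibits, was at 7.33, 7.21 and 6.99 in resolving lung, 7.42, 7.23 and 7.33 in control lung and 6.74, 6.40 and 6.73 in resolving spleen. It was among the few genes with the higher mean in control lung, and its lung groups overlapped. It was higher than in spleen by 0.55 (SE 0.12, adjusted p = 0.0364) in resolving lung and 0.71 (SE 0.12, adjusted p = 0.0129) in control lung, and the lung groups differed by -0.15 (95% interval -0.43 to 0.12). The origin recognition subunits passed no test: Orc6 differed by 0.28, 0.60 and 0.32 in the 3 comparisons in the same order, and Orc1 was dim in every spleen array.

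Among the 11 helicase genes Gins1 rose in resolving over control lung, and 5 genes, Gins1 among them, rose over spleen. The 11 genes had medians of 0.41, 0.73 and 0.39 in resolving minus control lung, resolving lung minus spleen and control lung minus spleen, and 1, 5 and 0 passed. The helicase median between the lung groups was 0.20 without resolving lung 1. Gins1 was at 5.64, 5.15 and 5.09 in resolving lung, 4.22, 4.42 and 4.51 in control lung and 4.50, 4.38 and 4.37 in resolving spleen. Its 3 resolving lung arrays lay above the other 6, while control lung and spleen overlapped. The difference was 0.91 (SE 0.15, adjusted p = 0.0498) from control lung, 0.88 (SE 0.15, adjusted p = 0.0139) from spleen and -0.03 (95% interval -0.37 to 0.30) between control lung and spleen. The other GINS subunits measured had overlapping arrays in every comparison. Gins4 was at 7.55, 7.78 and 7.28 in resolving lung, 7.30, 7.42 and 7.56 in control lung and 7.45, 7.45 and 7.45 in resolving spleen, and its resolving minus control lung difference was 0.11 (95% interval -0.17 to 0.40). Gins3 was at 6.68, 6.16 and 5.67 in resolving lung, 4.84, 5.48 and 5.91 in control lung and 5.89, 6.11 and 5.70 in resolving spleen, the widest spread of the GINS genes, and its difference between the lung groups was 0.76 (95% interval 0.05 to 1.47). The difference in response between GINS genes was not tested.

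Of the ring subunits, Mcm3, Mcm4 and Mcm5 rose in resolving lung over spleen, and Mcm2, Mcm6 and Mcm7 did not pass. Mcm3 was at 8.62, 8.39 and 8.09 in resolving lung, 7.63, 7.76 and 8.07 in control lung and 7.06, 7.53 and 7.44 in resolving spleen, with no overlap between any of the groups. Its difference was 1.02 (SE 0.18, adjusted p = 0.0162) from spleen and 0.55 (adjusted p = 0.218) from control lung. Mcm4 was at 9.09, 8.64 and 8.59 in resolving lung, 8.60, 8.57 and 8.79 in control lung and 7.93, 8.14 and 8.23 in resolving spleen. Its lung groups overlapped, and resolving lung exceeded spleen by 0.67 (SE 0.14, adjusted p = 0.0336), with an adjusted p of 0.0704 with the replicate block. Mcm5 was at 9.13, 8.64 and 8.26 in resolving lung, 7.98, 7.89 and 8.39 in control lung and 7.49, 7.79 and 7.73 in resolving spleen, with lung groups that overlapped and all lung arrays above spleen. Its difference from spleen was 1.01 (SE 0.22, adjusted p = 0.0369), and its adjusted p with the replicate block was 0.0794. Cdc45, which joins the ring to form the active helicase, was at 6.29, 5.83 and 5.40 in resolving lung, 5.26, 5.50 and 5.73 in control lung and 4.55, 4.84 and 4.85 in resolving spleen. Resolving lung 3 lay inside the control range, and the difference from spleen was 1.09 (SE 0.22, adjusted p = 0.0272), with an adjusted p of 0.0635 with the replicate block. Mcm6 had the same direction at 0.73 (adjusted p = 0.0617), as did Mcm10, which helps start the helicase, at 0.90 (adjusted p = 0.0715). Mcm2 and Mcm7 differed from spleen by 0.51 (adjusted p = 0.238) and 0.44 (adjusted p = 0.150).

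**Figure D4:**
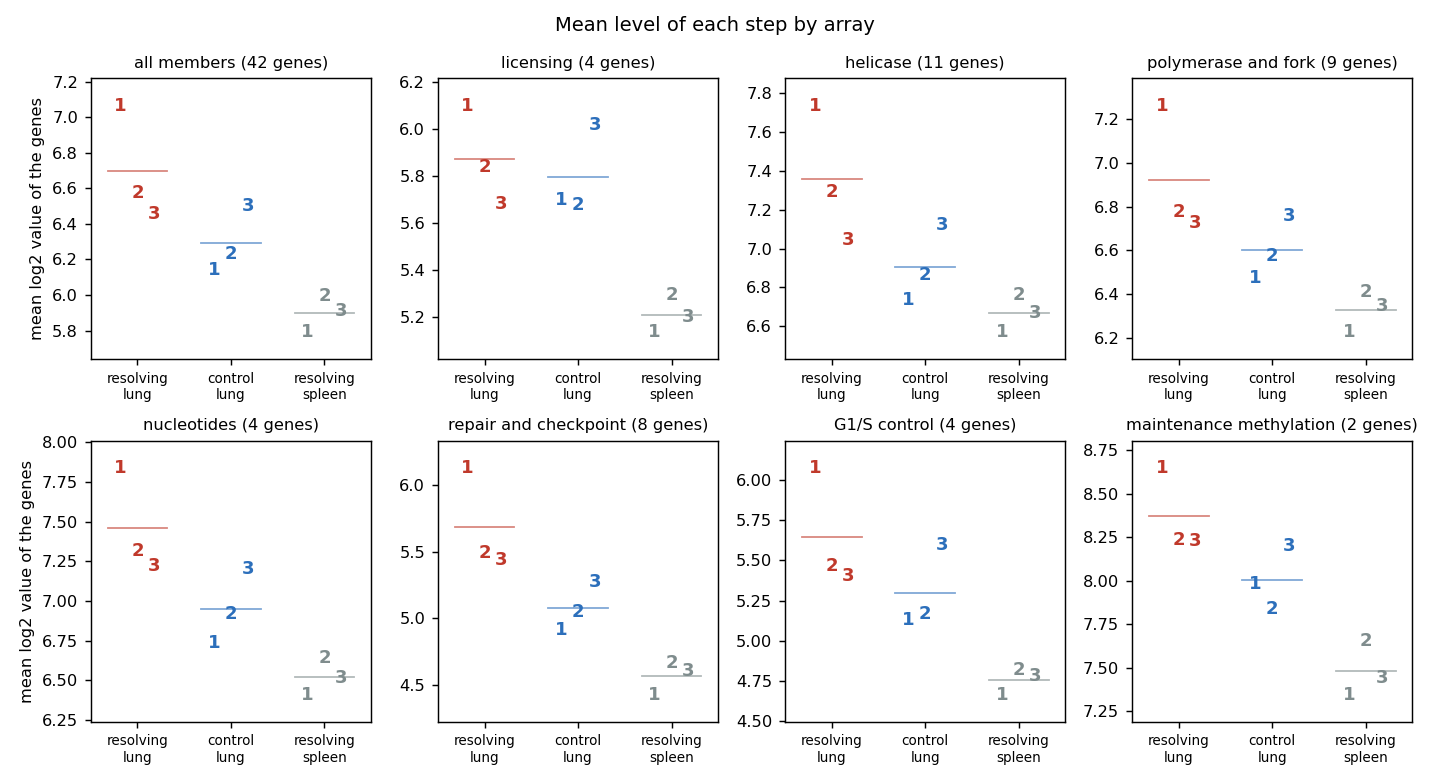
Mean log2 value of the genes of each step in each array, with digits for replicate numbers and lines for group means. Licensing genes averaged 5.68 to 6.10 in resolving lung, 5.68 to 6.02 in control lung and 5.14 to 5.29 in spleen, while repair and checkpoint genes averaged 5.44 to 6.12, 4.92 to 5.27 and 4.43 to 4.66 in the same groups.

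Among the 9 polymerase and fork genes the medians were 0.28, 0.49 and 0.08 in resolving minus control lung, resolving lung minus spleen and control lung minus spleen, and 0, 3 and 1 passed. Leaving out resolving lung 1 gave a median of 0.14 between the lung groups. Pola1, the catalytic subunit of polymerase alpha, was at 6.79, 6.48 and 6.56 in resolving lung, 6.33, 6.22 and 6.42 in control lung and 5.52, 5.81 and 5.81 in resolving spleen. No groups overlapped. Its difference was 0.90 (SE 0.11, adjusted p = 0.00504) for resolving lung minus spleen, 0.61 (SE 0.11, adjusted p = 0.0172) for control lung minus spleen and 0.28 (adjusted p = 0.306) between the lung groups. Pola2, the subunit that binds it, differed by 0.17 (95% interval -0.10 to 0.44) between resolving lung and spleen and passed no test. Prim1, the catalytic subunit of primase, was at 7.79, 7.39 and 7.29 in resolving lung, 7.09, 7.25 and 7.36 in control lung and 6.45, 6.73 and 6.79 in resolving spleen. All lung arrays lay above spleen, the lung groups overlapped, and resolving lung exceeded spleen by 0.83 (SE 0.15, adjusted p = 0.0179). Lig1, the ligase that joins the fragments of the lagging strand, was at 7.94, 7.03 and 7.20 in resolving lung, 6.75, 6.75 and 7.08 in control lung and 6.08, 6.22 and 5.96 in resolving spleen, with resolving lung 1 well above the rest. It exceeded spleen by 1.30 (SE 0.22, adjusted p = 0.0150) in resolving lung and by 0.77 (adjusted p = 0.0888) in control lung, which did not pass, and the lung groups differed by 0.53 (adjusted p = 0.339). Prim2, Pold1, Pole, Rfc3 and Rfc4, which serve as the second primase subunit, the catalytic subunits of polymerases delta and epsilon and clamp loader subunits, passed no test, with resolving lung minus spleen differences of 0.45, 0.10, 0.77, 0.34 and 0.49.

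The 4 nucleotide genes had medians of 0.53, 0.85 and 0.37 in resolving minus control lung, resolving lung minus spleen and control lung minus spleen, with 0, 3 and 1 past the test. In resolving against control lung the smallest adjusted p was 0.241, and the median was 0.315 without resolving lung 1. Rrm2, the S-phase subunit of ribonucleotide reductase, was at 8.18, 7.70 and 7.66 in resolving lung, 7.07, 7.21 and 7.69 in control lung and 6.48, 6.56 and 6.61 in resolving spleen. Control lung 3 lay above resolving lung 3, and every lung array lay above spleen. It rose by 1.30 (SE 0.18, adjusted p = 0.00700) in resolving lung and by 0.78 (SE 0.18, adjusted p = 0.0433) in control lung over spleen, and the lung groups differed by 0.52 (adjusted p = 0.242). Rrm1, the large subunit of the same enzyme, was at 9.22, 8.68 and 8.49 in resolving lung, 8.16, 8.27 and 8.38 in control lung and 7.84, 8.11 and 7.76 in resolving spleen, with no overlap between groups. Its difference from spleen was 0.89 (SE 0.18, adjusted p = 0.0291), with an adjusted p of 0.0558 with the replicate block. Tyms, which makes thymidylate, was at 6.14, 5.58 and 5.79 in resolving lung, 5.19, 5.40 and 5.62 in control lung and 4.88, 5.16 and 5.04 in resolving spleen. Its difference was 0.81 (SE 0.16, adjusted p = 0.0268) between resolving lung and spleen, where the adjusted p with the replicate block was 0.0594. Tk1, the thymidine salvage kinase, was at 7.80, 7.31 and 6.93 in resolving lung, 6.51, 6.78 and 7.12 in control lung and 6.45, 6.72 and 6.64 in resolving spleen. It passed no test, at 0.54 (adjusted p = 0.334) between the lung groups and 0.74 (adjusted p = 0.110) between resolving lung and spleen.

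Repair and checkpoint genes had the largest median of the steps in each comparison. Over the 8 genes it was 0.58 in resolving minus control lung, 1.23 in resolving lung minus spleen and 0.61 in control lung minus spleen, with 1, 5 and 2 genes past the test. Without resolving lung 1 the median between the lung groups was 0.32, about that of the nucleotide genes. Parpbp was at 6.39, 6.11 and 6.44 in resolving lung, 5.32, 5.34 and 5.41 in control lung and 4.40, 4.66 and 4.81 in resolving spleen. No groups overlapped, and resolving lung 1 did not stand out, since resolving lung 3 was higher. The differences were 0.96 (SE 0.12, adjusted p = 0.0323) from control lung, 1.69 (SE 0.12, adjusted p = 0.00136) from spleen and 0.74 (SE 0.12, adjusted p = 0.0117) between control lung and spleen. Clspn encodes claspin, the adaptor through which the kinase ATR activates the checkpoint kinase Chk1, and was at 6.57, 6.06 and 6.05 in resolving lung, 5.37, 5.57 and 6.13 in control lung and 4.35, 4.68 and 4.45 in resolving spleen. Control lung 3 lay within the resolving lung range, and all lung arrays lay well above all spleen arrays. Its difference was 1.74 (SE 0.22, adjusted p = 0.00497) for resolving lung minus spleen, 1.20 (SE 0.22, adjusted p = 0.0163) for control lung minus spleen and 0.54 (adjusted p = 0.315) between the lung groups. Chek1, the kinase itself, was at 5.93, 5.56 and 5.34 in resolving lung, 5.04, 4.94 and 5.14 in control lung and 4.57, 4.81 and 5.01 in resolving spleen. The resolving lung arrays lay above all others, and the difference from spleen was 0.81 (SE 0.16, adjusted p = 0.0259), with an adjusted p of 0.0602 with the replicate block. Between the lung groups Chek1 differed by 0.57 (adjusted p = 0.167).

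Brca1 and Rad51ap1, both of homologous recombination, passed against spleen in resolving lung. Brca1 was at 5.84, 5.08 and 5.07 in resolving lung, 4.71, 4.58 and 5.15 in control lung and 4.19, 4.06 and 4.02 in resolving spleen. Resolving lung exceeded spleen by 1.24 (SE 0.22, adjusted p = 0.0176), while the lung groups overlapped. Rad51ap1, a recombination accessory gene, was at 4.91, 4.09 and 4.08 in resolving lung, 3.73, 3.73 and 3.80 in control lung and 2.86, 3.32 and 3.22 in resolving spleen, and its spleen values were all dim, so that resolving lung exceeded spleen by at least 0.98 (adjusted p of the fit 0.0182). Brca2, which also serves homologous recombination, overlapped in every comparison and differed by 0.35 (95% interval -0.20 to 0.90) between resolving lung and spleen. Exo1, a nuclease, and Tipin, which with Timeless protects the fork, passed no test, with resolving lung minus spleen differences of 1.23 (adjusted p = 0.0772) and 0.64 (adjusted p = 0.179).

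Of the G1/S genes, Ccne2 and E2f8 rose in resolving lung over spleen. The medians over the 4 genes were 0.41, 0.89 and 0.40 in resolving minus control lung, resolving lung minus spleen and control lung minus spleen, and 0, 2 and 1 passed. The G1/S median between the lung groups was 0.10 without resolving lung 1. Ccne2, cyclin E2, which drives Cdk2 at S-phase entry, was at 5.96, 5.78 and 5.60 in resolving lung, 5.64, 5.70 and 5.70 in control lung and 4.34, 4.32 and 4.51 in resolving spleen. The lung groups overlapped within a narrow range, and both lay far above spleen. Its difference was 1.39 (SE 0.10, adjusted p = 0.00136) for resolving lung minus spleen, 1.29 (SE 0.10, adjusted p = 0.000443) for control lung minus spleen and 0.10 (95% interval -0.12 to 0.33) between the lung groups. Ccne1, cyclin E1, overlapped in every comparison, with differences of 0.41 (95% interval -0.28 to 1.09) from spleen in resolving lung and 0.07 (95% interval -0.61 to 0.75) in control lung. The difference between the cyclins was not tested. E2f8, a repressor of the E2F family, was at 7.34, 6.79 and 7.05 in resolving lung, 6.26, 6.58 and 6.90 in control lung and 5.57, 6.14 and 6.00 in resolving spleen. All lung arrays lay above spleen, and resolving lung exceeded spleen by 1.16 (SE 0.21, adjusted p = 0.0193). E2f1, an activator of the family, was at 5.28, 4.14 and 3.97 in resolving lung, 3.97, 3.83 and 4.13 in control lung and 3.76, 3.97 and 3.82 in resolving spleen, and only resolving lung 1 stood clear of the other arrays. Its difference between the lung groups was 0.49 (95% interval -0.20 to 1.17).

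**Figure D5:**
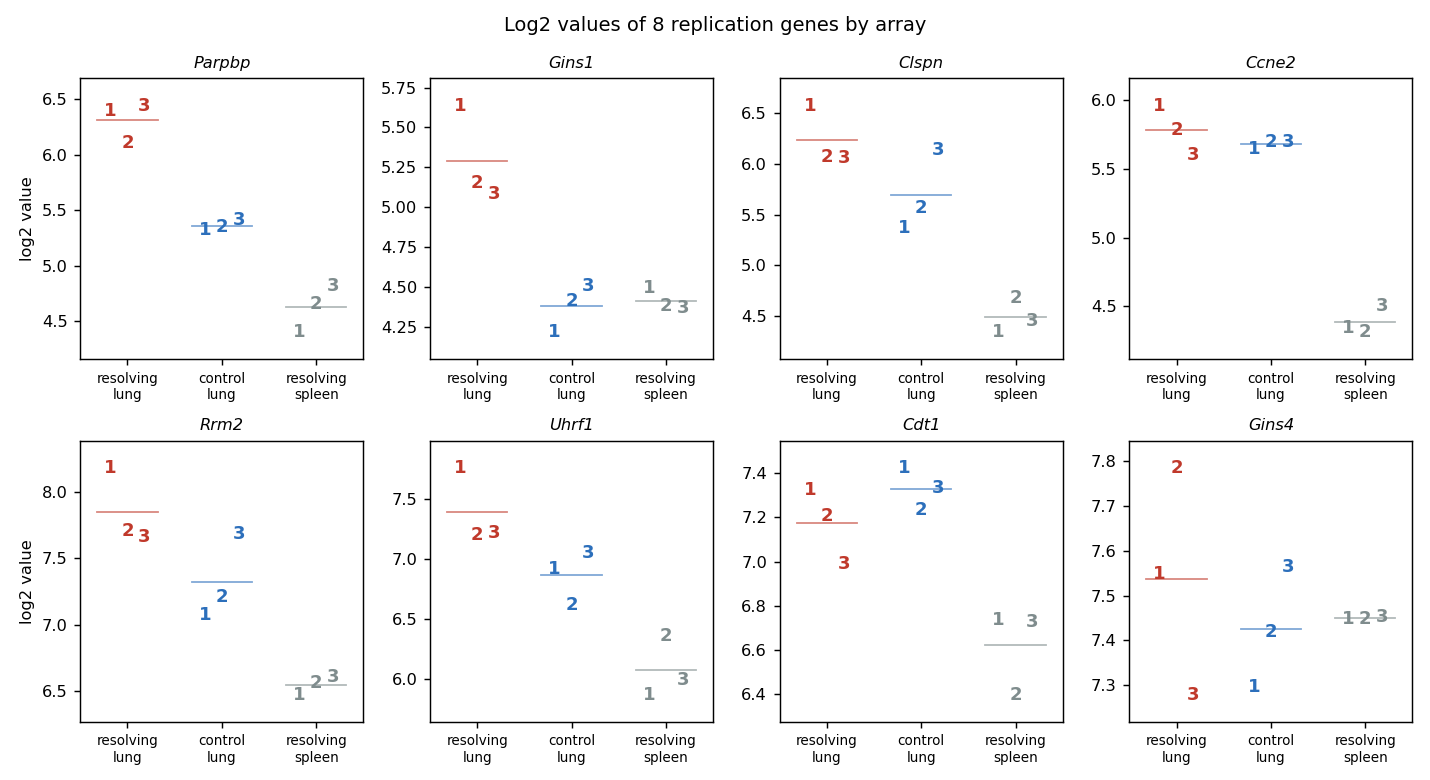
Log2 values of Parpbp, Gins1, Clspn, Ccne2, Rrm2, Uhrf1, Cdt1 and Gins4 in each array, with digits for replicate numbers and lines for group means. Parpbp has 3 groups that do not overlap, Gins1 is high in resolving lung only, Ccne2 separates both lung groups (5.60 to 5.96 and 5.64 to 5.70) from spleen (4.32 to 4.51), and Gins4 overlaps throughout.

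Both genes that copy DNA methylation onto the new strand rose in resolving lung over spleen. Uhrf1, which recognises hemimethylated DNA, was at 7.75, 7.20 and 7.21 in resolving lung, 6.92, 6.62 and 7.05 in control lung and 5.87, 6.36 and 5.99 in resolving spleen. No groups overlapped, and the difference was 1.31 (SE 0.19, adjusted p = 0.00822) for resolving lung minus spleen, 0.52 (adjusted p = 0.262) between the lung groups and 0.79 (SE 0.19, adjusted p = 0.04998) for control lung minus spleen, just under the threshold. Dnmt1, the methyltransferase that Uhrf1 recruits, was at 9.54, 9.27 and 9.25 in resolving lung, 9.04, 9.05 and 9.35 in control lung and 8.82, 8.95 and 8.89 in resolving spleen. Its difference of 0.47 (SE 0.11, adjusted p = 0.0496) from spleen was also near the threshold, and the adjusted p with the replicate block was 0.0948.

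Other replication genes, 44 in all, were measured outside the set. They gave 0 calls in resolving against control lung (limma, with 11 higher and 1 lower at an unadjusted p under 0.05). There 0.133% of all named genes were called higher and 0.323% lower, and 7.61% were higher at the unadjusted level. In resolving lung 13 of the 44 were higher than in spleen, against 2.64% of all named genes. In control lung 6 were higher and 1 lower than in spleen, against 2.67% and 3.49%. Among the 13, Ticrr, which helps activate licensed origins, differed by 1.32 (adjusted p = 0.00797), Dbf4, the activator of the kinase Cdc7, by 0.83 (adjusted p = 0.00720), and the histone chaperone gene Asf1b by 1.15 (adjusted p = 0.0176). The others included Gmnn, Pole2, Rpa2, Dna2, Dck, Atad2, Blm, Fancd2 and Nasp, with differences of 0.31 to 0.92. The largest of these, 0.92, was that of Dna2, which lay above the dim level in only 1 of the 3 spleen arrays. With the replicate block 7 of the list passed, and those that did not included Gmnn, Rpa2, Dna2, Fancd2 and Nasp, with adjusted p of 0.0505 (Dna2) to 0.0706 (Rpa2). In control lung against spleen, Dbf4 rose by 0.99 (adjusted p = 0.00276) and Ticrr by 1.13 (adjusted p = 0.0128), as did Rpa2, Atad2, Donson and Nasp, while the origin recognition gene Orc5 fell, at -0.37 (adjusted p = 0.0376). In the lung comparison the smallest p belonged to Donson, a gene needed for helicase assembly, then to Rpa3, at 0.49 (adjusted p = 0.105), and Timeless, at 0.41 (adjusted p = 0.172). Donson was at 7.45, 8.18 and 7.84 in resolving lung, 8.64, 8.70 and 8.70 in control lung and 7.89, 7.65 and 7.71 in resolving spleen. It ran against the replication set, with all resolving lung arrays below all control arrays at -0.85 (adjusted p = 0.0686), which did not pass.

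Of 18 measured cell cycle regulators, 0 passed in resolving against control lung (limma, 7 higher and 1 lower at an unadjusted p under 0.05). At the unadjusted level 7.61% of all named genes were higher there. In resolving lung 6 regulators were higher than in spleen, against 2.64% of all named genes. In control lung 5 were higher and 1 lower than in spleen, against 2.67% and 3.49%. Cdkn1a, which encodes the Cdk inhibitor p21, was at 8.44, 8.11 and 7.66 in resolving lung, 8.26, 7.94 and 7.98 in control lung and 5.30, 5.91 and 5.16 in resolving spleen. Both lung groups lay far above spleen and overlapped each other, and the difference was 2.61 (SE 0.24, adjusted p = 0.00196) for resolving lung minus spleen, 2.60 (SE 0.24, adjusted p = 0.00102) for control lung minus spleen and 0.01 (95% interval -0.54 to 0.56) between the lung groups. The proliferation marker Mki67 rose by 1.31 (adjusted p = 0.00502) in resolving lung and 0.88 (adjusted p = 0.0182) in control lung over spleen, and Top2a, which untangles replicated DNA, by 1.48 (adjusted p = 0.00375) and 1.10 (adjusted p = 0.00960). Ccna2, the cyclin of S and G2 phase, rose by 1.66 (adjusted p = 0.00612) and 1.21 (adjusted p = 0.0177). Cdk6 and the inhibitor gene Cdkn2c rose in resolving lung over spleen, by 0.71 (adjusted p = 0.0446) and 1.05 (adjusted p = 0.0451), and Cdk6 had an adjusted p of 0.0905 with the replicate block. Between the lung groups the smallest p belonged to Cdk6, at 0.63 (adjusted p = 0.142), and to the E2F-binding pocket protein genes Rbl1, at 0.24 (adjusted p = 0.169), and Rbl2, at 0.26 (adjusted p = 0.215). In control lung E2f7 rose over spleen by 0.96 (adjusted p = 0.0404), and the G1 cyclin gene Ccnd2 was lower than in spleen, at -0.78 (adjusted p = 0.0118).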

How the data were processed

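Each sample of sorted Treg RNA was measured on 1 Mouse Gene 2.1 ST array (225 ng of RNA, per the labels). Groups and replicate numbers were taken from the sample titles, since the description of the arrays titled spleen replicate 2 and 3 is the same. The deposited values were expression values, 31351 rows by 9 arrays, whose log2 scale was read from their range. RMA, Partek and Affymetrix Expression Console were the tools named, per the submitters' processing notes, and their versions are not given in the sources used here. RMA makes the distributions of arrays alike, so it would hide a shift of most genes at once, and it shrinks changes of dim genes. Of the rows, 21057 matched 1 symbol and 10294 (32.8%) stayed unnamed. Where a gene had several rows, the brightest on average was used, which left 21023 genes, and none was removed for low signal.

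All 9 arrays entered 1 linear model in limma 3.58.1 (lmFit and eBayes, R 4.3.3, statmod 1.5.0), with 6 residual and 2.29 prior degrees of freedom and Benjamini-Hochberg adjustment over all named genes. The fit was tested on simulated data with independent arrays. These held no effect shared by the genes of an array and no pairing, so that test does not cover either. No exact permutation test was run, since with 3 arrays a group its smallest p is 0.1. The number of arrays limited the precision. A gene dim in every array of a group has only a bound, the other group's mean minus the mean dim level. The replicate numbers were checked by correlating deviations from group means between same-numbered arrays: 0.17, 0.13 and 0.16 between resolving lung and spleen, which was taken as paired. Altogether 21 other settings were run, 1 of them chosen after seeing the data (trend, robust prior, array weights, only the groups compared, replicate block, dim filter, all rows, other scalings, averaged rows and arrays left out). The genes, lists and rules were chosen with earlier results of these data known. Values by array are given for genes past the threshold in any comparison and for the gene with the largest difference of each step. Of the other lists, genes past the threshold are named or, where there were none, those with the smallest p, and 1 gene counted in them is not reported here by name.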

Additional observations from a re-analysis of the deposited data

How the results depend on the processing

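No call of a replication gene changed direction under the 21 alternatives. The main counts of replication genes higher in resolving than control lung (2), in resolving lung than spleen (22) and in control lung than spleen (8) stayed within 1.5 times of these values under the settings not named here. In resolving against control lung the count was 1 with a variance trend, a robust prior or all rows, and 0 with only the 2 groups fitted or without resolving lung 1 and control lung 1, where the median difference was 0.15. Over single arrays left out it ran from 0 to 2, with medians of 0.21 to 0.56. In resolving lung against spleen it was 11 with only the 2 groups, and 8 to 23 over arrays left out, with medians of 0.62 to 0.91. In control lung against spleen it was 13 with array weights, 15 with only the 2 groups, 14 without resolving lung 1 and control lung 1, and 3 to 15 over arrays left out, with medians of 0.29 to 0.48. Leaving out arrays or groups also removes degrees of freedom, and otherwise the cause was not tested.

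With the replicate number as a block, 0 replication genes passed in resolving against control lung, 15 in resolving lung against spleen and 5 in control lung against spleen. With the block and only the 2 groups, an alternative added after seeing the data, the counts were 0, 2 (Parpbp and Ccne2) and 8. Same-numbered deviations correlated at 0.29, 0.07 and 0.10 between the lung groups and at 0.08, −0.06 and 0.05 between control lung and spleen. The values between the lung groups overlapped the 0.17, 0.13 and 0.16 between resolving lung and spleen, so they do not set those comparisons apart. Whether same-numbered arrays share more than a number is not known from the labels. Of the other replication genes the block left 7 higher in resolving lung than spleen and, with only the 2 groups, 0. In control lung against spleen it left 0 lower. Of the cell cycle regulators, the block with only the 2 groups left 1 higher in resolving lung than spleen.

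Of other replication genes, 1 was lower in resolving than control lung with the dim filter and 0 to 1 over arrays left out. In resolving lung against spleen 6 were higher with only the 2 groups, and 3 to 13 over arrays left out. In control lung against spleen 2 to 8 were higher and 0 to 1 lower over arrays left out, and 0 were lower with a trend, only the 2 groups, median centring, quantile normalisation or without resolving lung 1 and control lung 1. Of the cell cycle regulators, 1 was lower in resolving lung than spleen with array weights, quantile normalisation or without resolving lung 1 and control lung 1, with 4 to 6 higher and 0 to 1 lower over arrays left out. In control lung against spleen 2 to 6 were higher and 0 to 1 lower over arrays left out.

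Over all named genes, 28 were higher and 68 lower in resolving than control lung. The counts were 0 and 0 with only the 2 groups, with or without the block, 7 and 8 with the block, 87 and 148 with the dim filter, 7 and 8 without resolving lung 1 and control lung 1, and 1 to 90 and 3 to 122 over arrays left out, and array weights left 44 lower. In resolving lung against spleen, where 556 were higher and 592 lower, they were 350 and 354 with only the 2 groups, 93 and 82 with the block as well, and 266 to 596 and 242 to 535 over arrays left out. In control lung against spleen, where 561 were higher and 734 lower, they were 306 to 788 and 368 to 1005 over arrays left out. Depth has no counterpart on arrays, but Orc1 and Rad51ap1 lay near or below the dim level in spleen, so their differences there are bounds or have no size.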
